A study of Mus musculus with 8 samples.

Results

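The transcription factors of the macrophage and Kupffer cell lineage described here are 8 genes, Nr1h3, Rxra, Spic, Tfec, Id1, Id3, Zeb2 and Maf, out of 24786 gene symbols counted. They were chosen by symbol, as a set of factors tied to liver macrophage identity, and all 8 passed the filter on low counts, which kept 15254 genes. Messenger RNA was sequenced from macrophages of C57BL/6 mouse liver in 8 libraries, 2 in each of 4 groups. The groups were Kupffer cells, which live in the sinusoids as resident phagocytes, and monocyte-derived macrophages (MoM), each from wild-type (WT) mice and from mice carrying the dnTGFβRII transgene (TG), a model of cholangitis. The transgene encodes a dominant-negative TGF-β receptor II and is known as a T cell transgene driven by the CD4 promoter, so the macrophages are not the cells it was built to act in. The labels used here do not state age, sex, how the subsets were separated or how many animals a library holds. The p-values therefore measure the spread between these libraries, which may be technical.

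Kupffer cells acquire their identity in the liver niche, where sinusoidal endothelial and stellate cells supply Notch ligands, BMP and TGF-β family ligands and sterol-derived signals. Nr1h3 encodes LXRα, the sterol-sensing nuclear receptor that pairs with the RXR receptors, and in mice it is required for the Kupffer programme. Rxra encodes the RXRα partner. Spic encodes an Ets factor of the PU.1 family that is induced by heme and marks iron-recycling macrophages. Id1 and Id3 encode inhibitors of E proteins that are classical targets of BMP signalling through Smad factors, and Id3 is needed for Kupffer cell development in mice. Zeb2 encodes a zinc-finger repressor that maintains tissue identity across resident macrophages, Maf encodes the large Maf factor c-Maf, and Tfec encodes a macrophage member of the MiT/TFE family.

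The promoter windows of 4 of these genes are shown because the genes stood lower together in MoM than in Kupffer cells, and because each window carries a motif of a family named above. They are RefSeq windows on GRCm38.p6, from 250 bases before to 50 bases after the transcription start, written 5′ to 3′ on the gene's strand, with motif matches in capitals. RefSeq windows were matched for 6 of the 8 genes, 11 windows in all. The first is the window of a downstream start of Rxra at chr2:27709042-27709341 on the plus strand, in which the capitals mark the nuclear receptor core motif AGGTCA, once in each orientation, 87 and 48 bases before the start.
Rxra: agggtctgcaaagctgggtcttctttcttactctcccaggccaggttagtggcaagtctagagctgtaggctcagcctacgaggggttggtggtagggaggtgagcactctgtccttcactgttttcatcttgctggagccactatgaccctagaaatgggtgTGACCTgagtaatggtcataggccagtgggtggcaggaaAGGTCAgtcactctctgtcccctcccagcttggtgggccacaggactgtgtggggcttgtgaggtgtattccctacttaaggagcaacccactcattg
The window of Nr1h3 at chr2:91195067-91195366 on the minus strand holds the Zeb E-box CAGGTG, read as CACCTG, 187 bases before the start and the Smad1/5 motif GGCGCC 119 bases before it.
Nr1h3: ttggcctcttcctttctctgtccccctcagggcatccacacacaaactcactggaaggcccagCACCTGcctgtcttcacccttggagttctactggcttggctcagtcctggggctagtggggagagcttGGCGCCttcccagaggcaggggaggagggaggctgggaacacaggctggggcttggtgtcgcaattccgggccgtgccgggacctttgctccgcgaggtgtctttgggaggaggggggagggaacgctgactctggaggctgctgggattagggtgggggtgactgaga
The window of Spic at chr10:88682974-88683273 on the minus strand holds the Maf core motif TGCTGA 198 bases before the start.
Spic: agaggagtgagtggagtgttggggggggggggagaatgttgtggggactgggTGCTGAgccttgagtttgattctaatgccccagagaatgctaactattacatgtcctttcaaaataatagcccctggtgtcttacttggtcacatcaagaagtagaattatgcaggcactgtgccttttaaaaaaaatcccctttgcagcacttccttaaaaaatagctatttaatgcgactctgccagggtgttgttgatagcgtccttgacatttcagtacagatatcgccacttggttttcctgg
The window of Id3 at chr4:136143572-136143871 on the plus strand holds the Spi family core GAGGAA 3 times, each read as TTCCTC, 208 and 201 bases before the start and 28 bases after it.
Id3: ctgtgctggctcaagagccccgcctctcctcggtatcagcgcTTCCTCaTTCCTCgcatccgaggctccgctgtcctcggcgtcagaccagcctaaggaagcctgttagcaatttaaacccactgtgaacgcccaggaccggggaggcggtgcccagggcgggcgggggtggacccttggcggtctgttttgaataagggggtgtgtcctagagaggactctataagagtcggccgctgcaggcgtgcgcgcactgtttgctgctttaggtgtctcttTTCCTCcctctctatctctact
Of the 32851 promoter windows in the same table, 16.3% hold AGGTCA on either strand, 20.2% CAGGTG, 11.9% GGCGCC, 19.5% TGCTGA and 28.3% GAGGAA. The MiT/TFE E-box CACGTG (7.15% of windows) and the Rbpj motif GTGGGAA (6.38%) were also searched on both strands and matched none of the 11 windows. These are matches of letters in the window, not measured sites. The windows shown were chosen for holding a motif. The window of the upstream Rxra start (chr2:27676951-27677250) held none of those searched, and windows of Zeb2 and Tfec, not shown, also held GAGGAA on either strand.

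Library totals were 26190194 to 30308132 counts, so 1 count equalled 0.0309 to 0.0378 CPM, the count scaled to a common library size with TMM factors. The 8 factors lay between 6.02 and 956 CPM in every library. The lectin Clec4f, a Kupffer cell marker, lay at 2736 to 12314 CPM in the Kupffer libraries, and the monocyte chemokine receptor Ccr2 at 128 to 460 CPM in the MoM libraries against 3.88 to 13.1 CPM in the Kupffer libraries. Clec4f was at 3599 CPM in MoM WT 1 and at 33.3 to 125 CPM in the other MoM libraries, so MoM WT 1 stood apart on a marker of the other subset. Tgfbr2, which does not separate the transgene from the endogenous gene in these counts, was at 174 to 349 CPM in all libraries. All 16 endothelial markers had counts in every library, with sums of 816 and 1394 CPM in Kupffer WT, 1006 and 13743 CPM in Kupffer TG 1 and 2, 8620 and 3406 CPM in MoM WT 1 and 2, and 842 and 3790 CPM in MoM TG 1 and 2. Of the 10 hepatocyte markers in the files, 9 or 10 had counts in each library (Apoc3 was at 0 in Kupffer TG 1 and Hnf4a in MoM TG 1), and their sums ran from 11.04 CPM in Kupffer TG 1 to 951 CPM in Kupffer TG 2. Neutrophil markers summed to 3660 CPM in MoM TG 2 and to at most 547 CPM elsewhere, and conventional dendritic cell markers to 1584 to 2135 CPM in MoM and to 73.8 to 603 CPM in Kupffer libraries. The part of these other cells' transcripts in the results below was not tested. In bulk libraries, fewer cells of a type and less RNA per cell cannot be told apart.

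In WT mice all 8 factors lay lower in both MoM libraries than in both Kupffer libraries, an order that 29.7% of all genes tested also showed. The median log2 fold change of the 8 was -1.66, against 0.11 over all genes. None of the 8 passed an adjusted p of 0.05 in edgeR's quasi-likelihood test, where 1.17% of all genes were called, 0.059% as lower in MoM. An unadjusted p below 0.05 was held by 4 of the 8 and was common among all genes. Id1, at an unadjusted edgeR p of 0.0415, ranked 3460 of 15254 genes by p. DESeq2 called 4 of the 8, Nr1h3, Spic, Zeb2 and Rxra, all lower in MoM, as were 7.46% of all genes by DESeq2. In TG mice 7 of the 8 lay lower in both MoM libraries than in both Kupffer libraries, an order seen in 23.8% of all genes, and the exception was Zeb2. Their median log2 fold change was -2.77, against -0.04 over all genes. Spic alone fell by edgeR's test, with 2.5% of all genes called and 0.656% called as lower. DESeq2 called 7, all but Zeb2, beside 8.83% of all genes as lower in MoM. The same 7 had an unadjusted edgeR p below 0.05, and the highest of these, 0.0215 for Id3, ranked 2535 of 15254 genes. Both comparisons of MoM with Kupffer cells changed with the libraries used. Without MoM WT 1, edgeR called 3 of the 8 in WT mice (Nr1h3, Spic and Rxra), where 2.13% of all genes were called as lower in MoM, and 4 in TG mice, where 3.25% were. Without MoM WT 2 it called 0 in WT mice (0% of all genes as lower) and 4 in TG mice (3.4%). Without Kupffer TG 2 it called 1 in WT (Zeb2; 2.37% of all genes as lower) and 3 in TG mice (2.06%), and without Kupffer TG 1 it called 1 in WT (Zeb2; 2.1%) and 0 in TG mice (0%). Without either Kupffer WT library or either MoM TG library it called almost no gene of all those tested in either genotype. The lack of calls among the 8 there was thus not particular to them. With Kupffer TG 2 and MoM WT 1 both left out, a setting added after the values were seen, it called 7 in WT mice, all but Maf, and 6 in TG mice, all but Zeb2 and Maf, where 7.43% and 7.06% of all genes were called as lower in MoM.

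**Figure D1:**
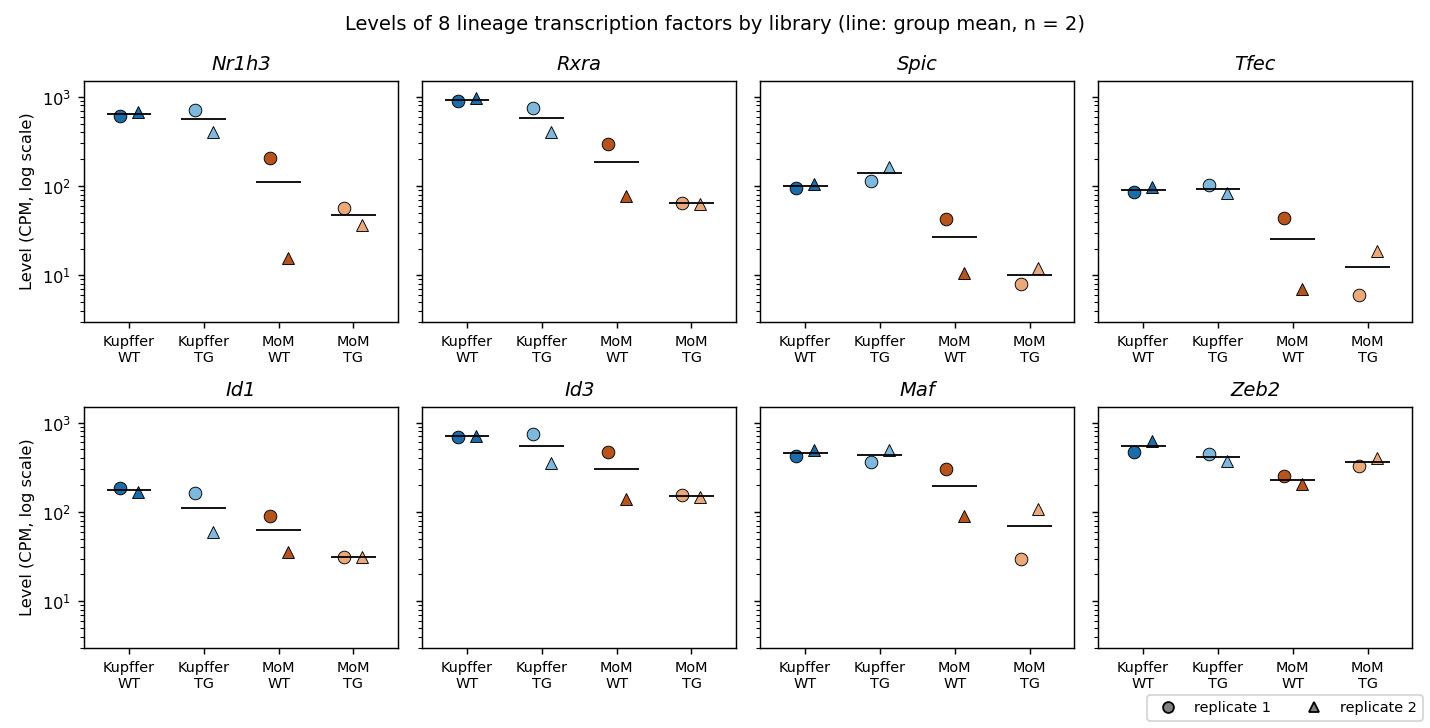
Level of each of the 8 factors in each library, in CPM on a log axis, by group; circles are replicate 1, triangles replicate 2 and lines the means of 2 libraries. In WT mice every factor is lower in both MoM libraries than in both Kupffer libraries, and for 7 of the 8 the same holds in TG mice, with Zeb2 the exception.

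**Figure D2:**
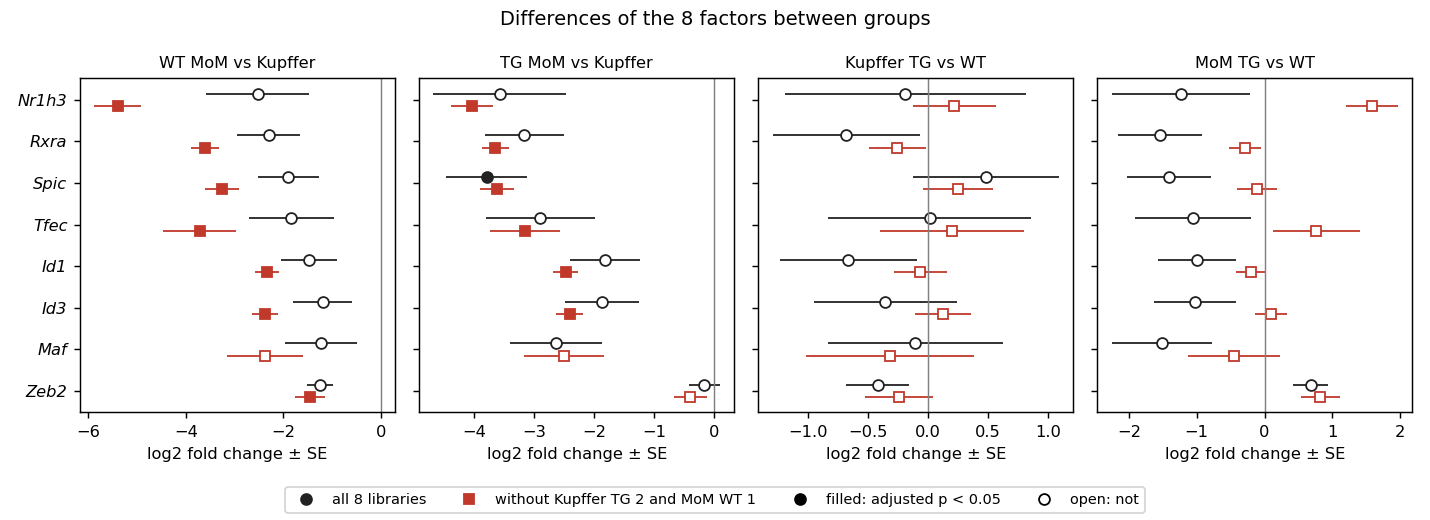
Log2 fold change with its SE for each factor in 4 comparisons, from the fit of all 8 libraries (black circles) and from the fit without Kupffer TG 2 and MoM WT 1 (red squares); filled symbols have an adjusted p below 0.05. The differences between MoM and Kupffer cells lie below 0 for all 8 factors in both fits, filled in the 8-library fit for Spic in TG mice and, without those 2 libraries, for 7 factors in WT and 6 in TG mice.

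Among the nuclear receptors, Nr1h3 (chromosome 2, 91184061 to 91202834, minus strand, GRCm38) had the widest spread between replicates. It was at 603 and 674 CPM in Kupffer WT, at 719 and 402 CPM in Kupffer TG, at 206 and 15.5 CPM in MoM WT and at 57.4 and 36.6 CPM in MoM TG. MoM WT 1 was thus 13.3 times as high as MoM WT 2, while every MoM library was below every Kupffer library. The log2 fold change between MoM and Kupffer cells was -2.53 ± 1.06 in WT mice (SE; adjusted p = 0.200) and -3.58 ± 1.11 in TG mice (adjusted p = 0.115). Without MoM WT 1 the WT value was -5.37 ± 0.61 (adjusted p = 0.0302) and the TG value -3.58 ± 0.41 (adjusted p = 0.0194). Without MoM WT 2 the WT value was -1.63 ± 0.49 (adjusted p = 0.334) and the TG value -3.57 ± 0.41 (adjusted p = 0.0193).

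Rxra (chromosome 2, 27676440 to 27762957, plus strand) was at 888 and 956 CPM in Kupffer WT, at 748 and 405 CPM in Kupffer TG, at 296 and 77.3 CPM in MoM WT and at 65.0 and 63.5 CPM in MoM TG. The 4 groups did not overlap, and Rxra was the one factor with that property; the order ran from Kupffer WT over Kupffer TG and MoM WT to MoM TG. The difference between MoM and Kupffer cells was -2.30 ± 0.64 in WT (log2; adjusted p = 0.111) and -3.17 ± 0.66 in TG mice (adjusted p = 0.0623). In TG mice it passed the threshold without MoM WT 1 (adjusted p = 0.0191), without MoM WT 2 (0.0192), without Kupffer TG 2 (0.0428) and with no filter on low counts (0.0485), and in WT mice without MoM WT 1 (-3.58 ± 0.49, adjusted p = 0.0336). Without MoM WT 2 the WT value was -1.64 ± 0.44 (adjusted p = 0.303), and without Kupffer TG 1 the TG value was -2.69 ± 0.68 (adjusted p = 0.136).

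Set beside their closest relatives per kilobase of exon, both receptors held over 80% of the family level in every Kupffer library and at most 66.4% in every MoM library. Nr1h3 made up 86.7% of the LXR pair in Kupffer WT and 86.7% in Kupffer TG (means of 2 libraries), and 41.3% in MoM WT and 32.0% in MoM TG. Nr1h2, which encodes the widely expressed LXRβ, had 39.0, 31.9, 36.5 and 38.9 CPM per kilobase in these 4 groups, and its log2 difference between MoM and Kupffer cells was -0.09 ± 0.20 in WT and 0.29 ± 0.20 in TG mice. Rxra made up 84.7% and 83.3% of the RXR level in Kupffer WT and TG, and 54.7% and 37.2% in MoM WT and TG. Rxrb, its broadly expressed relative, stood at 30.8, 20.5, 23.4 and 20.5 CPM per kilobase, with log2 differences of -0.39 ± 0.37 in WT and 0.00 ± 0.37 in TG mice. Rxrg, the third RXR gene, did not pass the filter and had at most 20 counts in a library. In MoM WT 1 the shares were 66.4% for Nr1h3 and 65.2% for Rxra, and in MoM WT 2 they were 16.3% and 44.1%.

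Spic (chromosome 10, 88674772 to 88685015, minus strand) was at 94.3 and 106 CPM in Kupffer WT, at 115 and 165 CPM in Kupffer TG, at 42.7 and 10.7 CPM in MoM WT and at 7.94 and 12.2 CPM in MoM TG. The TG Kupffer libraries were the highest 2 and the MoM libraries the lowest 4. In TG mice Spic was 13.9-fold lower in MoM than in Kupffer cells (log2 fold change -3.79 ± 0.68, edgeR adjusted p = 0.0486). The adjusted p was 0.0607 with the replicate number as a block and 0.0885 with only the 4 libraries compared. Spic missed the threshold without Kupffer TG 1, either Kupffer WT library or either MoM TG library, settings in which almost no gene of all those tested was called. The log2 fold change stayed between -4.14 and -3.51 over the 8 libraries left out in turn. In WT mice the difference was -1.90 ± 0.62 (adjusted p = 0.142), and -3.23 ± 0.43 without MoM WT 1 (adjusted p = 0.0322) but -1.23 ± 0.38 without MoM WT 2 (adjusted p = 0.340). Per kilobase, Spi1, which encodes PU.1, a master factor of myeloid cells, dominated the family in every group with mean shares of 79.5% to 92.2%. Spic held 9.93% in Kupffer WT and 19.6% in Kupffer TG, where the libraries read 10.8% and 28.5%, and 4.14% in MoM WT and 1.32% in MoM TG. Spib, a relative known from B cells and plasmacytoid dendritic cells, held 6.73% and 6.51% in MoM WT and TG against 0.528% and 0.823% in Kupffer WT and TG; B cell markers summed to 100 to 230 CPM in MoM and to 20.7 to 39.8 CPM in Kupffer libraries.

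Id1 and Id3 had the same order of groups, with replicates close together in Kupffer WT and MoM TG and far apart in the other 2 groups. Id1 (chromosome 2, 152736251 to 152737410, plus strand) was at 183 and 167 CPM in Kupffer WT, 162 and 59.1 CPM in Kupffer TG, 90.3 and 35.6 CPM in MoM WT and 31.6 and 31.3 CPM in MoM TG. Id3 (chromosome 4, 136143497 to 136145755, plus strand) was at 693 and 704 CPM in Kupffer WT, 739 and 355 CPM in Kupffer TG, 472 and 139 CPM in MoM WT and 153 and 148 CPM in MoM TG. For both genes Kupffer TG 2 and MoM WT 1, the libraries with the highest endothelial sums, lay between the Kupffer WT and MoM TG levels. Between MoM and Kupffer cells, Id1 differed by -1.47 ± 0.58 in WT (log2; adjusted p = 0.183) and by -1.81 ± 0.59 in TG mice (adjusted p = 0.125), and the latter was -2.47 ± 0.49 without Kupffer TG 2 (adjusted p = 0.0458) and -0.94 ± 0.50 without Kupffer TG 1 (adjusted p = 0.302). For Id3 the differences were -1.19 ± 0.60 (adjusted p = 0.254) and -1.86 ± 0.62 (adjusted p = 0.129). The Id3 value in TG mice was -2.40 without Kupffer TG 2 and -1.27 without Kupffer TG 1, and in WT mice -2.34 without MoM WT 1 and -0.57 without MoM WT 2, none of them past the threshold. Id2, a relative of broad expression in immune cells, had mean shares of the Id family per kilobase of 48.3% in MoM WT and 60.2% in MoM TG. In Kupffer WT and TG these were 33.1% and 45.7%. The MoM WT libraries were at 38.0% and 58.7%, and in MoM WT 1 Id3 was above Id2, at 47.2%. Id3 held 48.3% and 41.1% in Kupffer WT and TG and 38.2% and 29.8% in MoM WT and TG. The larger mean share of Id2 in MoM was not a higher level. Id2 was at 269 and 322 CPM per kilobase in Kupffer WT and TG and at 184 and 171 in MoM WT and TG.

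Maf (chromosome 8, 115682942 to 115707794, minus strand) was at 424 and 498 CPM in Kupffer WT, at 358 and 498 CPM in Kupffer TG, at 301 and 91.0 CPM in MoM WT and at 29.8 and 108 CPM in MoM TG. Kupffer libraries did not overlap MoM libraries, and within each MoM group one library was over 3-fold above the other (ratios of 3.30 and 3.61). The log2 difference between MoM and Kupffer cells was -1.24 ± 0.74 in WT (adjusted p = 0.313) and -2.64 ± 0.77 in TG mice (adjusted p = 0.104). The antisense gene Gm15655 overlaps Maf by 440 exon bases and has no value here, and no source used here states the strand setting of the counts.

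Tfec (chromosome 6, 16833373 to 16898441, minus strand) had the lowest mean of the 8 per kilobase in every group. It was at 85.0 and 97.9 CPM in Kupffer WT, at 102 and 82.8 CPM in Kupffer TG, at 44.1 and 7.11 CPM in MoM WT and at 6.02 and 18.7 CPM in MoM TG. The Kupffer libraries of both genotypes overlapped, and MoM WT 1 was 6.20 times as high as MoM WT 2. Tfec differed between MoM and Kupffer cells by -1.84 ± 0.87 in WT (log2; adjusted p = 0.233) and by -2.90 ± 0.90 in TG mice (adjusted p = 0.117). The TG value passed the threshold without MoM WT 1 (adjusted p = 0.0490) and without MoM WT 2 (0.0487). Tfec held 30.8% and 34.8% of the MiT/TFE family per kilobase in Kupffer WT and TG and 14.8% and 7.01% in MoM WT and TG. Tfeb, a regulator of lysosomal genes, held 17.6% and 15.3% in Kupffer WT and TG and 37.0% and 47.9% in MoM WT and TG. Mitf held 22.1% and 18.9% in Kupffer WT and TG and 11.8% and 13.5% in MoM WT and TG. For Tfe3 these were 29.5%, 31.0%, 36.4% and 31.6%. A lower level in MoM was not particular to Tfec. In the same 4 groups Mitf was at 11.8, 8.96, 3.48 and 4.19 CPM per kilobase, and Tfe3 at 15.6, 14.5, 10.0 and 9.81.

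**Figure D3:**
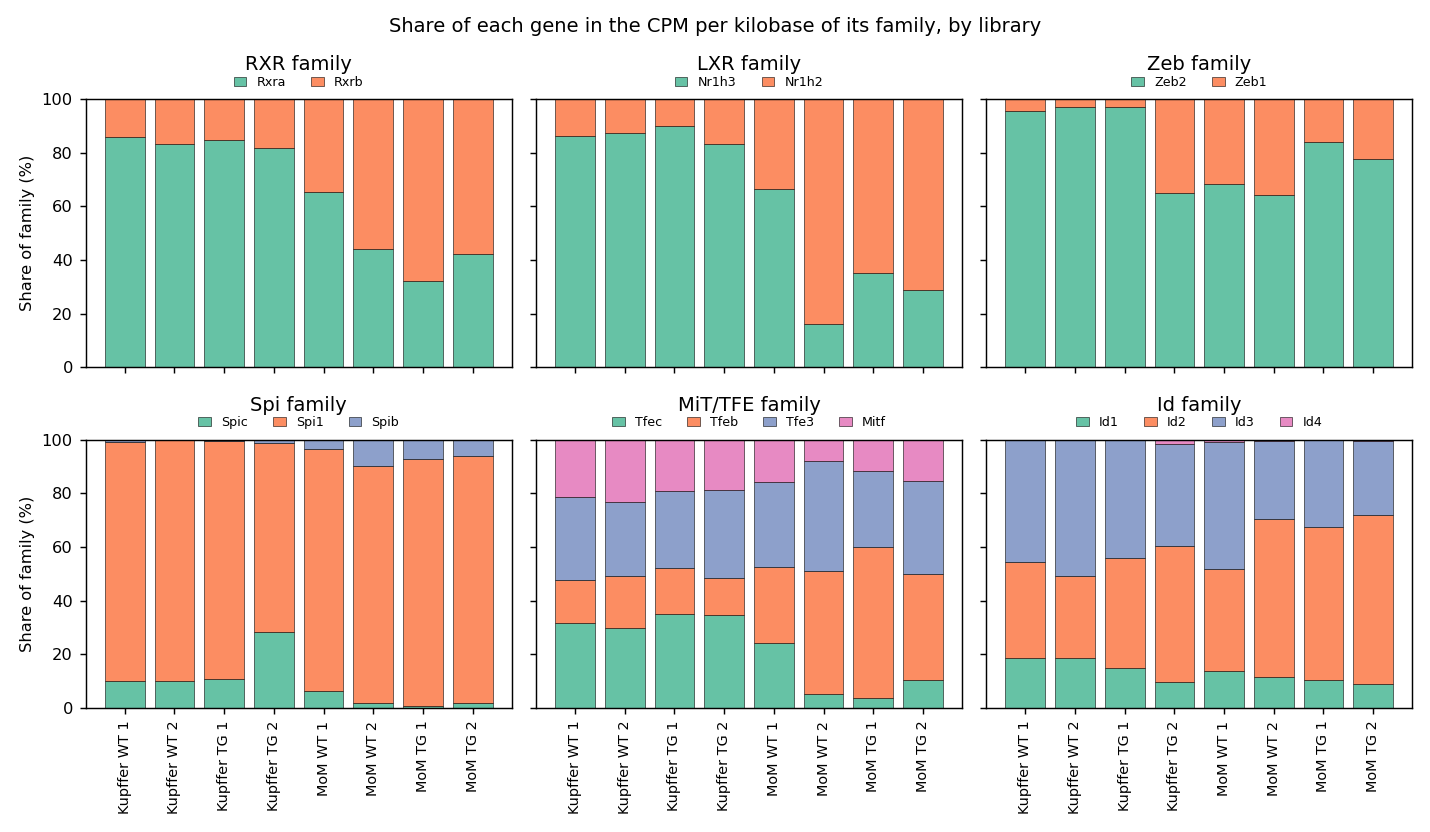
Share of each gene in the summed CPM per kilobase of exon of its family, in percent, for each library. Rxra and Nr1h3 fill over 80% of their families in the 4 Kupffer libraries and at most 66.4% in the MoM libraries, with MoM WT 1 closest to the Kupffer libraries. Spi1 and Zeb2 hold the largest share of their families in all 8 libraries.

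Zeb2 (chromosome 2, 44983632 to 45117395, minus strand) departed from the other 7. It was at 469 and 623 CPM in Kupffer WT, at 445 and 371 CPM in Kupffer TG, at 253 and 204 CPM in MoM WT and at 330 and 402 CPM in MoM TG. Its replicates lay within 1.33-fold of each other in all 4 groups, and the TG libraries sat between the WT Kupffer and the WT MoM libraries. In WT mice the difference between MoM and Kupffer cells was -1.26 ± 0.27 (log2; adjusted p = 0.0788), and the adjusted p was 0.0392 without Kupffer TG 1, 0.0372 without Kupffer TG 2 and 0.0474 with only the 4 libraries compared. In TG mice the subsets overlapped (-0.16 ± 0.26, adjusted p = 0.733). Zeb2os, annotated on the opposite strand, shares 653 of its 1990 exon bases with Zeb2, and without a stated strand setting their reads may not be separable. Zeb2os stood at 44.0 and 45.0 CPM in Kupffer WT, 36.6 and 29.3 CPM in Kupffer TG, 14.98 and 11.7 CPM in MoM WT and 17.5 and 21.9 CPM in MoM TG, the same order of groups as Zeb2 at much lower counts. Zeb1, the other member of the family, stood at 6.58 and 103 CPM in Kupffer TG 1 and 2, 9.93 to 10.8 CPM in Kupffer WT and 57.9 to 60.6 CPM in MoM WT.

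Whether the transgene moved the factors was asked within each subset. In Kupffer cells 0 of the 8 differed between TG and WT by edgeR's adjusted p (0% of all genes were called) and 0 had an unadjusted p below 0.05; DESeq2 also called 0 of the 8, and 1.55% of all genes. Log2 fold changes ran from -0.68 ± 0.61 for Rxra and -0.66 ± 0.57 for Id1 to 0.48 ± 0.60 for Spic, with a median of -0.27 against 0.03 over all genes. Spic was higher in both TG libraries than in both WT libraries, Id1, Zeb2 and Rxra were lower, and Nr1h3, Id3, Maf and Tfec overlapped; of all genes, 16.7% were higher and 17.7% lower in TG without overlap. Several of these values turned on Kupffer TG 2, where Id1 stood at 33.8%, Rxra at 43.9%, Id3 at 50.8% and Nr1h3 at 63.0% of the WT Kupffer mean but Spic at 165% and Maf at 108%. In the other TG Kupffer library the 8 factors had a median of 99.2% of the WT Kupffer mean. Without Kupffer TG 2, Nr1h3 changed sign to 0.22 and Id3 to 0.13, and Rxra was at -0.25 and Id1 at -0.064. Without Kupffer TG 1, Maf changed sign to 0.086 and Tfec to -0.17, and without Kupffer WT 1 Tfec changed sign to -0.047.

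In MoM 0 of the 8 differed between TG and WT by edgeR's adjusted p (0% of all genes called) or by DESeq2 (0.872% of all genes). Zeb2 and Rxra had unadjusted p of 0.0394 and 0.0468 in edgeR's quasi-likelihood fit across all genes, where the adjusted p were 0.755 and 0.757. Log2 fold changes were negative for 7 factors, from -1.54 ± 0.63 for Rxra and -1.51 ± 0.74 for Maf to -1.0003 ± 0.57 for Id1, and positive for Zeb2 at 0.68 ± 0.26. Their median was -1.14 against -0.04 over all genes. Id1 and Rxra were lower and Zeb2 higher without overlap, and the other 5 overlapped; of all genes, 20% were lower and 19.2% higher in TG without overlap. Leaving out MoM WT 1 changed the sign of Nr1h3 to 1.61, of Id3 to 0.12 and of Tfec to 0.81, and moved Spic from -1.41 to -0.080, Rxra to -0.26, Id1 to -0.17 and Maf to -0.40; Zeb2 was then at 0.85. The difference between the TG effects of the subsets (MoM minus Kupffer) passed the threshold for 0 of the 8 (0% of all genes called; 0 by DESeq2, which called 0.334% of all genes), and Zeb2, at 1.10 ± 0.37 with an unadjusted edgeR p of 0.0236 and an adjusted p of 0.626, was the one factor below an unadjusted 0.05. The median interaction of the 8 was -0.96 against -0.12 over all genes. Without MoM WT 1 it changed sign for Nr1h3 (1.80), Id1 (0.49), Id3 (0.48), Tfec (0.80) and Rxra (0.42), and without Kupffer TG 1 for Id1 (0.59).

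MoM WT 1 was the highest MoM library for 7 of the 8 factors, and a list of 14 Kupffer identity genes (Clec4f, Timd4 and Vsig4 among them) was also highest there by its median among MoM libraries. Relative to the WT Kupffer mean, its factors ranged from 32.1% for Rxra and 32.3% for Nr1h3 over 42.7% for Spic, 46.4% for Zeb2, 48.2% for Tfec and 51.6% for Id1 to 65.2% for Maf and 67.6% for Id3. The 14 Kupffer identity genes had a median of 30.4% in MoM WT 1, and 1.10%, 2.25% and 1.75% in MoM WT 2, MoM TG 1 and MoM TG 2. The factors had medians of 47.3%, 15.2%, 8.46% and 19.2% in these 4 libraries. In MoM WT 1, Nr1h3 and Rxra lay near the median of the identity genes, while the identity genes Xlr (58.1%), Marco (48.2%) and Clec1b (38.5%) lay within the range of the factors. In Kupffer TG 2 the factors had a median of 65.5% and the identity genes 53.7%. Whether these libraries hold cells of the other subset was not tested.

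**Figure D4:**
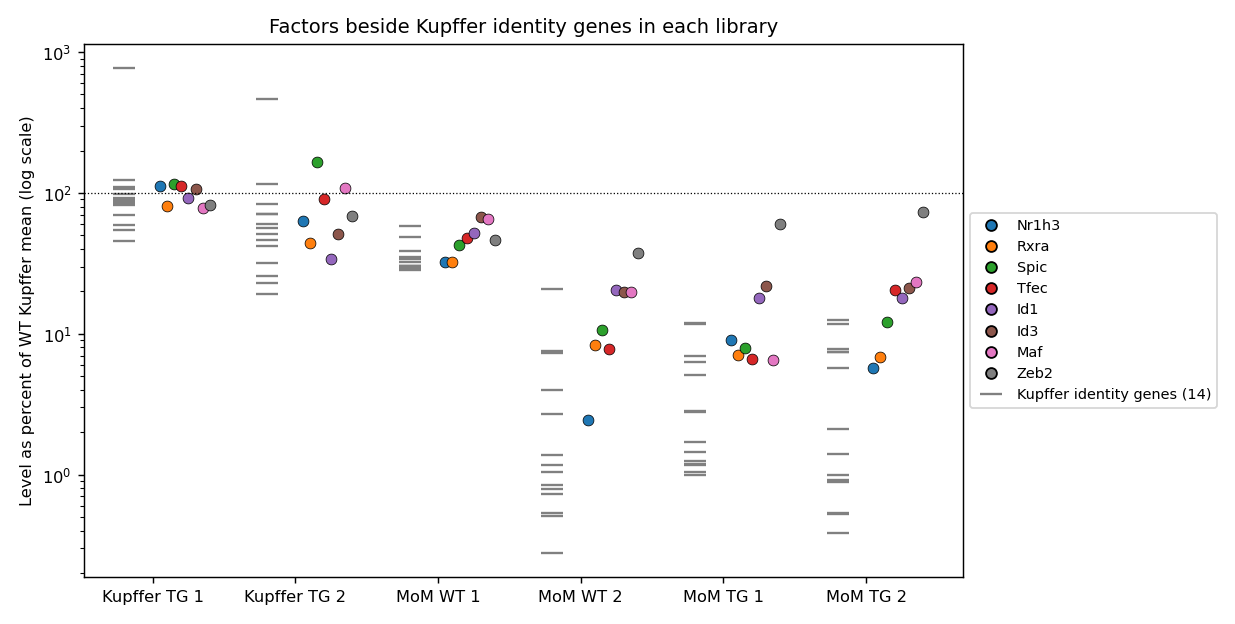
Level of the 8 factors (coloured circles) and of 14 Kupffer identity genes (grey dashes) in each Kupffer TG and MoM library, as a percent of the WT Kupffer mean on a log axis. In MoM WT 1 the identity genes centre on 30.4% and the factors on 47.3%; in MoM WT 2 and both MoM TG libraries the identity genes centre on 1.10% to 2.25% and the factors on 8.46% to 19.2%.

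Compared per kilobase of exon, Id3 had the highest and Tfec the lowest mean of the 8 genes in each of the 4 groups. In Kupffer WT the means ran from Id3 at 390 CPM per kilobase over Nr1h3 at 254, Rxra at 169, Id1 at 151, Maf at 56.0, Zeb2 at 27.4 and Spic at 26.1 to Tfec at 16.3; Zeb2 and Spic, with SDs of 5.47 and 2.12, did not differ beyond their spread. In MoM TG the means ran from Id3 at 84.0 over Id1 at 27.1, Nr1h3 at 18.7, Zeb2 at 18.4, Rxra at 11.8, Maf at 8.33 and Spic at 2.62 to Tfec at 2.21. The lowest of these, Spic and Tfec with SDs of 0.787 and 1.60, did not differ beyond their spread, and in MoM TG 2 Spic (3.18) was below Tfec (3.34).

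Other genes of the pathways around these factors were taken from 10 lists holding 123 genes, of which 120 were tested. In TG mice, between MoM and Kupffer cells, 9 of the 120 were called by edgeR, beside 2.5% of all genes. Runx1, a hematopoietic factor, rose by 2.05 ± 0.28 on the log2 scale (adjusted p = 0.0316), from 56.0 and 48.0 CPM in Kupffer TG to 255 and 177 CPM in MoM TG. Nr4a1, a nuclear receptor of patrolling monocytes, rose by 2.14 ± 0.38 (adjusted p = 0.0476). They were 2 of the 20 other macrophage, monocyte and dendritic cell factors, 9 of which had an unadjusted p below 0.05. Among 17 BMP and TGF-β receptors, Smads and inhibitors, Bmpr1a, a type I BMP receptor upstream of the Id genes, fell by 3.08 ± 0.42 on the log2 scale (adjusted p = 0.0312), from 16.7 and 14.2 CPM to 1.24 and 2.40 CPM. Among 10 Notch genes the Notch target Hey1 fell by 4.64 ± 0.76 (adjusted p = 0.0433), from 17.5 and 7.56 CPM to 0.301 and 0.694 CPM, and endothelial cells also express it.

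Of 9 genes tied to Spic and heme recycling, the heme transporter Slc48a1 fell by 1.89 ± 0.32 (adjusted p = 0.0466), and 8 of the 9 had an unadjusted p below 0.05, with a median log2 fold change of -2.77. Of the 14 Kupffer identity genes Xlr fell by 3.14 ± 0.56 (adjusted p = 0.0486), and all 14 had an unadjusted p below 0.05. Such p were common among all genes in this comparison, where Id3 at an unadjusted edgeR p of 0.0215 ranked 2535 of 15254. Of 12 monocyte genes, Ccr2 rose by 4.86 ± 0.51 (adjusted p = 0.0248), Napsa, an aspartic protease gene, by 5.41 ± 0.70 (adjusted p = 0.0305) and Ms4a4c by 4.60 ± 0.73 (adjusted p = 0.0417). None of the 14 tested LXR and RXR targets, the 8 genes linked to Maf, the 3 E proteins that Id1 and Id3 bind or the 15 tested relatives passed edgeR's threshold, with 10, 5, 0 and 6 at an unadjusted p below 0.05 and medians of -1.12, -3.61, -0.30 and 0.07. Abca1, the cholesterol exporter induced by LXR, was at -3.01 ± 0.72 there (adjusted p = 0.0753). DESeq2 called 65 of the 120, 21 higher and 44 lower, beside 2658 of all 15254 genes, 1311 higher and 1347 lower. Calls by edgeR moved with the library left out, over all genes as among the 120. Almost no gene of all those tested was called without Kupffer TG 1, either Kupffer WT library or either MoM TG library. Each of the 9 called genes missed the threshold under 6 to 10 of 15 alternatives, Nr4a1 under 10, with no change of sign.

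In WT mice, between MoM and Kupffer cells, 4 of the 120 were called by edgeR, all monocyte genes that were higher in MoM, beside 1.17% of all genes. Napsa rose by 7.29 ± 0.77 on the log2 scale (adjusted p = 0.0260), Ccr2 by 4.92 ± 0.52 (adjusted p = 0.0260), and the S100 calcium-binding genes S100a6 by 6.37 ± 0.88 (adjusted p = 0.0379) and S100a4 by 9.02 ± 1.39 (adjusted p = 0.0478). The lists with the lowest medians were the Kupffer identity genes at -2.64, the genes linked to Maf at -1.99, the Spic and heme genes at -1.79 and the LXR and RXR targets at -1.52, against 0.11 over all genes. The Notch list stood at 1.79 in WT mice, with 8 genes higher and 2 lower in MoM. In TG mice the list stood at -0.26, with 3 higher and 7 lower. The Notch effector Rbpj was at 2.86 ± 0.50 in WT mice (adjusted p = 0.0616). Between Kupffer WT and MoM WT, mean Dll4 rose from 3.99 to 53.8 CPM and mean Notch4 from 4.90 to 59.5 CPM. Endothelial marker sums were also higher in both MoM WT libraries than in both Kupffer WT libraries. The part of endothelial transcripts in the Notch values was not tested. DESeq2 called 56 of the 120, 26 higher and 30 lower, beside 2942 of all 15254 genes, 1804 higher and 1138 lower. Calls by edgeR moved with the library left out, over all genes as among the 120. Almost no gene of all those tested was called without either Kupffer WT library, either MoM TG library or MoM WT 2.

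Between TG and WT, edgeR called 0 of the 120 list genes in Kupffer cells and 0 in MoM, beside 0% of all genes. DESeq2 called 2 in Kupffer cells and 5 in MoM, beside 1.55% and 0.872% of all genes. An unadjusted edgeR p below 0.05 was held by 8 in Kupffer cells and by 20 in MoM. The share of all genes below that p is not given here, so these counts are not read as a result about the lists. In Kupffer cells, Zeb2 at an unadjusted edgeR p of 0.158 ranked 3161 of 15254 genes. In MoM, Rxra at an unadjusted edgeR p of 0.0468 ranked 940 of 15254 genes. The smallest p of each list is given as a value. In Kupffer cells these were -1.10 ± 0.34 for the TGF-β type I receptor Tgfbr1, 2.495 ± 0.63 for Napsa, 2.59 ± 1.07 for the dendritic cell factor Zbtb46, 2.76 ± 1.18 for the Notch regulator Nrarp, 2.40 ± 1.09 for Zeb1, 2.62 ± 1.38 for the scavenger receptor Marco, -0.68 ± 0.35 for the LXR target Arl4c, 0.38 ± 0.33 for the E protein Tcf12, 0.31 ± 0.29 for ferritin heavy chain Fth1 and 1.15 ± 0.91 for Selenop, at adjusted p from 0.730 to 0.839. Napsa passed the threshold by DESeq2 (adjusted p = 0.0119), and Marco (1.27e-11) and Tgfbr1 (0.00353) passed by DESeq2 on only the 4 Kupffer libraries. Without Kupffer TG 1, Napsa was at 3.08 and Zeb1 at 3.28. There Kupffer TG 2, the library with the highest endothelial sum, stood alone for its group. Zeb1 was at 6.58 CPM in Kupffer TG 1 and at 103 CPM in Kupffer TG 2. Without Kupffer TG 2, Zeb1 changed sign to -0.61, Tcf12 to -0.11 and Selenop to -0.061. Over the 15 alternatives Nrarp ran from 0.54 to 4.16 and Zbtb46 from 0.17 to 3.74.

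In MoM the same rule gave -2.25 ± 0.41 for Bmpr1a, 1.56 ± 0.36 for Plac8, -2.13 ± 0.54 for Xlr, -2.64 ± 0.70 for Hey1, 1.297 ± 0.36 for the nuclear receptor Pparg, -1.98 ± 0.63 for Hpgd, -2.31 ± 0.84 for the efferocytosis receptor Mertk, -4.28 ± 1.57 for the hemoglobin scavenger receptor Cd163, 0.55 ± 0.31 for Tfeb and -0.48 ± 0.49 for Tcf4, at adjusted p from 0.618 to 0.883. By DESeq2 the adjusted p was 0.000313 for Bmpr1a, 0.0219 for Plac8, 0.0338 for Xlr, 0.0456 for Hey1 and 0.0468 for Cd163. Without MoM WT 1, Cd163 changed sign to 0.24. For the interaction 0 of the 120 were called, beside 0% of all genes, and 9 had an unadjusted edgeR p below 0.05. That count too is not read as a result, since Zeb2 at an unadjusted edgeR p of 0.0236 ranked 337 of 15254 genes there. Its smallest p of each list belonged to Runx1 (1.25 ± 0.38), Tgfbr1 (1.53 ± 0.47), Gas6 (-3.41 ± 1.23), Dll4 (-5.66 ± 2.21), Xlr (-1.80 ± 0.74), S100a4 (-3.39 ± 1.49), Id4 (-5.40 ± 2.40), Vcam1 (-2.63 ± 1.34), Mertk (-1.97 ± 1.14) and Tcf12 (-0.51 ± 0.46). Without MoM WT 1 the value of Mertk was 0.025. Over the 13 alternatives Dll4 ran from -6.69 to -0.042, Id4 from -7.17 to -0.022, Vcam1 from -3.53 to -0.11 and Tcf12 from -0.89 to -0.036. In Kupffer TG, Dll4 was at 1.97 CPM in one library and 88.2 CPM in the other, and Id4 at 0.832 and 32.3 CPM.

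The genes most alike to each factor were ranked by Pearson's r of log2(CPM + 0.5) over the 8 libraries among 12428 genes, as a description; the points share the split into 2 subsets and the 2 libraries with high endothelial sums. Nr1h3 was followed most closely by Blvrb, the biliverdin reductase B gene (r = 0.997), Sectm1a (0.994) and Dse (0.994). Rxra was nearest to St3gal5 (0.998), Syp (0.997) and Cfp, the properdin gene (0.997). Spic was nearest to Tpp1 (0.994), Hyal6 (0.993) and Glul, the glutamine synthetase gene (0.992). Id1 was nearest to Gclm (0.997), Cryl1 (0.990) and Glrp1 (0.990), and Id3 to Cinp (0.997), Nudt9 (0.995) and Tmprss4 (0.993). Maf was nearest to Fgd6 (0.998), Kdelc2 (0.996) and Lima1 (0.993), and Tfec to Snx13 (0.993), Snx2 (0.993) and Cd38 (0.993). Zeb2 was nearest to Zdhhc9 (0.993), Rffl (0.981) and Naip2 (0.978). Between the factors themselves r was highest for Id1 with Id3 (0.980) and Id3 with Rxra (0.979), and lowest for Zeb2 with Maf (0.491).

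The authors' deposited table compares TG with WT for 179 genes and does not name a subset. None of the 8 factors is among them. Among pathway genes, the authors' deposited table gives Marco at a log2 fold change of 2.64, S100a4 at 3.69 and Tgfbr1 at -1.08. DESeq2 on only the 4 Kupffer libraries gave 2.64 for Marco and -1.08 for Tgfbr1, so for these 2 genes the authors' values matched Kupffer cells. In MoM both means went the other way, from 177 CPM in WT to 68.5 CPM in TG for Marco and from 89.7 to 121 CPM for Tgfbr1.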

How the data were processed

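Polyadenylated RNA of liver macrophages was sequenced in 8 libraries, whose titles give the groups. The submitters' processing notes name STAR 2.5.2b and the mm10 build, which is GRCm38. Which program counted reads, on which annotation and strand, is not given in the sources used here. Values deposited are raw counts, whole numbers for each gene symbol. Counts of 1 to 19 were even in 65.0% to 68.0% of cases, so mates may have been counted separately, and counting error is then larger than the counts imply. Library totals were 26190194 to 30308132 counts. A further table by the authors holds, per the file headers, p-values and adjusted p-values, the Wald score behind them, log2 fold changes with standard errors and a mean of normalized counts.

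The 4 groups were fitted together over all libraries in edgeR 4.0.16 under R 4.3.3, after filterByExpr and TMM, with the quasi-likelihood F-test (two-sided), with Benjamini-Hochberg adjustment over all 15254 genes and a call at an adjusted p below 0.05. The SE is the size of the log2 fold change divided by the square root of F. The fit had 4 residual and 2.37 prior degrees of freedom and a common biological coefficient of variation of 0.507. Levels are TMM-scaled CPM, given by library or as mean with n = 2; exon lengths and positions come from GENCODE M21, which matched 24255 of 24786 symbols.

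The members and lists were chosen with earlier results of these data known. The text names all members, the called genes of each list (up to 4), and, where no list gene was called, the gene of each list with the smallest p. It also names the 3 genes most alike to each member, and markers of subsets and other cells. Abca1 and Rbpj, and the family relatives given with their shares, were named in addition after their values were seen. Some list genes are not reported here. Alternatives were no filter on low counts, size factors by median of ratios, a replicate block, leaving out each of the 8 libraries, DESeq2 1.42.0, and a fit of only the 4 libraries compared. Added after the data were seen were DESeq2 on those 4 libraries and a fit with Kupffer TG 2 and MoM WT 1 both left out. Figures used matplotlib 3.10.9 in Python 3.11.15 with pandas 2.3.3 and numpy 2.4.6.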

Additional observations from a re-analysis of the deposited data

Results flagged for a closer look

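Zeb2 was flagged because it was lower in both Kupffer TG than in both Kupffer WT libraries and higher in both MoM TG than in both MoM WT libraries. Of all genes, 17.7% were lower in Kupffer TG and 19.2% higher in MoM TG without overlap. Neither TG effect of Zeb2 passed edgeR's threshold (adjusted p = 0.763 in Kupffer cells and 0.755 in MoM). The difference between these effects (MoM minus Kupffer) was 1.10 ± 0.37 on the log2 scale. Its unadjusted edgeR p was 0.0236 and its adjusted p 0.626, so the difference did not pass the threshold. It kept its sign under all 13 alternatives, between 0.88 and 1.27. Given the order for which Zeb2 was flagged, leaving out a library could hardly change that sign, so the kept sign gives no further support.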

How the results depend on the processing

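In the comparisons of MoM with Kupffer cells no factor changed sign under any of 15 alternatives, and calls changed instead. In WT mice, where edgeR called 0 factors, 1 was called with only the 4 libraries compared, 4 by DESeq2, 5 by DESeq2 on those 4 libraries, 7 with Kupffer TG 2 and MoM WT 1 both left out, and 0 to 3 with each library left out in turn. In TG mice, where 1 was called, the numbers were 0 with only the 4 libraries, 7 by DESeq2, 7 by DESeq2 on those 4, 6 with both left out, 0 to 4 with each library left out, 2 with no filter and 0 with the replicate block. List genes called in WT mice, 4 in the fit reported, were 22, 56, 69 and 63 under the same first 4 settings and 0 to 35 with each library left out. In TG mice they were 9, and 0, 65, 72, 56 and 0 to 45. List genes called for TG against WT, 0 in the fit reported, were 2 and 3 by DESeq2 and by DESeq2 on 4 libraries in Kupffer cells, and 5 and 3 in MoM. With each library left out they were 0 to 2 in Kupffer cells, and 0 to 1 for the interaction. Calls over all genes moved too. In WT mice 1585 of 14547 genes were called with only the 4 libraries, 2942 of 15254 by DESeq2 and 3900 of 14547 by DESeq2 on those 4. In TG mice these were 0 of 14287, 2658 of 15254 and 3649 of 14287, with 520 of 19230 under no filter and 301 of 15254 under the replicate block. For TG against WT, DESeq2 on 4 libraries called 173 of 13722 genes in Kupffer cells and 210 of 14644 in MoM. Leaving out a library removes a residual degree of freedom, and the cause of the other changes was not tested.

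For TG against WT and the interaction, no factor was called under any alternative, but signs changed. With Kupffer TG 2 and MoM WT 1 both left out, log2 values in Kupffer cells were 0.22 for Nr1h3, 0.13 for Id3, -0.61 for Zeb1, -0.11 for Tcf12 and -0.062 for Selenop. In MoM they were 1.59 for Nr1h3, 0.10 for Id3, 0.76 for Tfec and 0.22 for Cd163, and for the interaction 1.37 for Nr1h3 and 0.56 for Tfec. With the replicate block, Tfec in Kupffer cells was at -0.0069. Over single libraries left out, Kupffer values ran from -0.69 to 0.22 for Nr1h3, -1.01 to 0.13 for Id3, -0.31 to 0.086 for Maf, -0.17 to 0.20 for Tfec, -0.61 to 3.28 for Zeb1, -0.11 to 0.74 for Tcf12 and -0.061 to 1.78 for Selenop. In MoM they ran from -2.13 to 1.61 for Nr1h3, -1.65 to 0.12 for Id3, -2.09 to 0.81 for Tfec and -5.25 to 0.24 for Cd163. For the interaction they ran from -1.94 to 1.80 for Nr1h3, -0.94 to 0.59 for Id1, -1.29 to 0.48 for Id3, -2.10 to 0.80 for Tfec, -1.52 to 0.42 for Rxra and -2.77 to 0.025 for Mertk. The labels do not say that replicate numbers pair libraries. Deviations from the group means of same-numbered libraries correlated between -0.14 and 0.62, and the replicate block ended the call of Spic.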
